A study of Mus musculus with 9 samples.

Results

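The Meis, Pbx and LIM homeobox genes described here are Meis1, Meis2, Meis3, Pbx2, Pbx3, Lhx2, Lhx9 and Lmx1b. They were taken by gene symbol, a rule that uses no signal, although the list was drawn up with earlier results of these data known. The 8 genes are 8 of 18193 genes with a probe set (a group of short probes for 1 transcript) on the Affymetrix Mouse Genome 430 2.0 array, and they have 20 of the 34945 probe sets listed with 1 gene. The arrays profiled cells of mouse embryos that carry Scx-GFP, a transgene that labels cells expressing the tendon gene Scx with green fluorescent protein. The labels describe forelimbs collected at embryonic days E11.5, E12.5 and E14.5 after natural matings, dissociated with trypsin and sorted for GFP on either of 2 cell sorters, without saying which. All groups carry the transgene, none was treated, and no GFP-negative fraction was analysed here. Each stage has 3 arrays, A, B and C. The labels do not say whether these came from separate litters or pools, so the p-values cover only the spread between these arrays, which may be technical.

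MEIS and PBX proteins belong to the TALE class of homeodomain proteins, bind DNA together and serve as partners of HOX proteins. In the early limb bud Meis1 and Meis2 mark the proximal part, where retinoic acid maintains them, and distal signals restrict them. LIM homeodomain proteins pair a homeodomain with LIM domains, which bind the LDB adaptor proteins. Lhx2 and Lhx9 act redundantly in limb bud mesenchyme to keep distal growth and the exchange of signals between mesenchyme and ectoderm, and Lmx1b specifies dorsal identity in the limb.

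Meis2, Lhx9 and Meis1 had the largest log2 changes of the 8 genes between E11.5 and E14.5, and their promoters are shown for that reason. The sequences are the 250 bases before the annotated start, 5′ to 3′ on the gene's strand, from RefSeq on build GRCm38.p6. They lie at chr11:19018970-19019219 for Meis1, chr2:116064620-116064869 for Meis2 and chr1:138842445-138842694 for Lhx9, each on the minus strand. Capitals mark every match to 6 motifs searched on both strands.
Meis1: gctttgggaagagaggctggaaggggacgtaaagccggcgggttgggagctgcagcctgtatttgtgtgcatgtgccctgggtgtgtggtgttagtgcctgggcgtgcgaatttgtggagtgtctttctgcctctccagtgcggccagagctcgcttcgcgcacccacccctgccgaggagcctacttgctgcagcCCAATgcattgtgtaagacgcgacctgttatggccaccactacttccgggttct
Meis2: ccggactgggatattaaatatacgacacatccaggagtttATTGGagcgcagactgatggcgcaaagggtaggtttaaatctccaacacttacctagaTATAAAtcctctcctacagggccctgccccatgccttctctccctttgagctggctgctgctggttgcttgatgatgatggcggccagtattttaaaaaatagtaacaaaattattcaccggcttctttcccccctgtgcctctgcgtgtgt
Lhx9: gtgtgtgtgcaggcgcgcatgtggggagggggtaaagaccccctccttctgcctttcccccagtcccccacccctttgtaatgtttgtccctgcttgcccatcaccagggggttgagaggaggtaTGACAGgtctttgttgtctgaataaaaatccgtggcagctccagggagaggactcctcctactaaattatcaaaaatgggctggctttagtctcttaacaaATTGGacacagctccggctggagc

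The MEIS motif TGACAG was found in the Lhx9 window at base -125, counted back from the start, and in no other window of these genes. It occurs in 15.9% of 32851 mouse promoter windows, searched over the same 250 bases before the start. The 50 bases after the start that these windows also hold were not searched. The motif TGATNNAT, bound by PBX with HOX proteins (7.68% of windows), and the LIM homeodomain motif TAATTA (4.84%) were in none of the 8 windows of the 7 genes other than Pbx3. A CCAAT box (33.8%) lay at -54 for Meis1, at -210 for Meis2 and at -24 for Lhx9, the last 2 on the other strand, where it reads ATTGG. Meis2 also had the TATA box letters TATAAA (12.4%) at -152. The GC box GGGCGG (32.7%) was in none of the 3 printed windows. A match describes the letters and is not a measured binding site.

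Some features of the arrays bear on the results. The values are MAS5 signals on a linear scale, set by the authors to the same trimmed mean of 500 on every array. Median signals were 68.7 to 118 and increased from A to B to C in every stage. They were 68.7, 79.6 and 106 at E11.5, 69.5, 94.5 and 106 at E12.5, and 81.5, 91.1 and 118 at E14.5. The sorted cells had tendon markers: 8 of 9 rose between E11.5 and E14.5 (8 with any 1 array left out), and summed tendon marker signal was 70973 to 95899 at E14.5 and 31660 to 43361 at E11.5. The ninth, Scx itself, fell (log2 -0.81 ± 0.22 SE, limma adjusted p = 0.0164), a call lost without E11.5 B or C or E14.5 A or B. The labels name forelimbs, but genes that mark the hindlimb were measured on all 9 arrays. Tbx4 had signals of 3663 to 4655 at E11.5, 2884 to 3778 at E12.5 and 2125 to 2549 at E14.5, and Pitx1 of 1655 to 2671, 2059 to 2714 and 736 to 1408 at the same stages. The forelimb gene Tbx5 had 612 to 1133, 1048 to 1253 and 548 to 858. Tbx4 (log2 -0.80 ± 0.16 SE, adjusted p = 0.00326) and Pitx1 (-1.07 ± 0.26, adjusted p = 0.00855) fell between E11.5 and E14.5 in the limma fit, and Tbx5 was not called (-0.37 ± 0.24, adjusted p = 0.259). The part of these genes in the results below was not tested.

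Several arrays held signals that the others of their stage lacked. Lhx8, a LIM homeobox gene known from the mesenchyme of the pharyngeal arches and from the forebrain, had a signal of 1550 on E11.5 B, against 2.24 and 1.85 on the other E11.5 arrays. Lhx6, with which it is known to act, had 493 on E11.5 B and no more than 19.8 on the other two. In all, 12 probe sets exceeded 300 on E11.5 B while both other E11.5 arrays lay below 90.6, the median of all signals. They include Dlx1 (653), Foxd1 (660), Barx1 (542) and Dlx2 (414), named after their values were seen. By the same measure E11.5 C had 11 such probe sets, E14.5 A 11 and E14.5 C 39, and the 5 other arrays had 0 to 3. Some of these probe sets followed the letter across stages. Parp4 had 558, 1240 and 631 on the C arrays of E11.5, E12.5 and E14.5, and at most 106 on the others. Dusp5 had 460, 642 and 521 on the A arrays and at most 80.0 on the others. Both were named after their values were seen, and the cause was not tested. Counts of calls for the 8 genes and the lists below are given with the arrays left out 1 at a time where these change them.

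**Figure D1:**
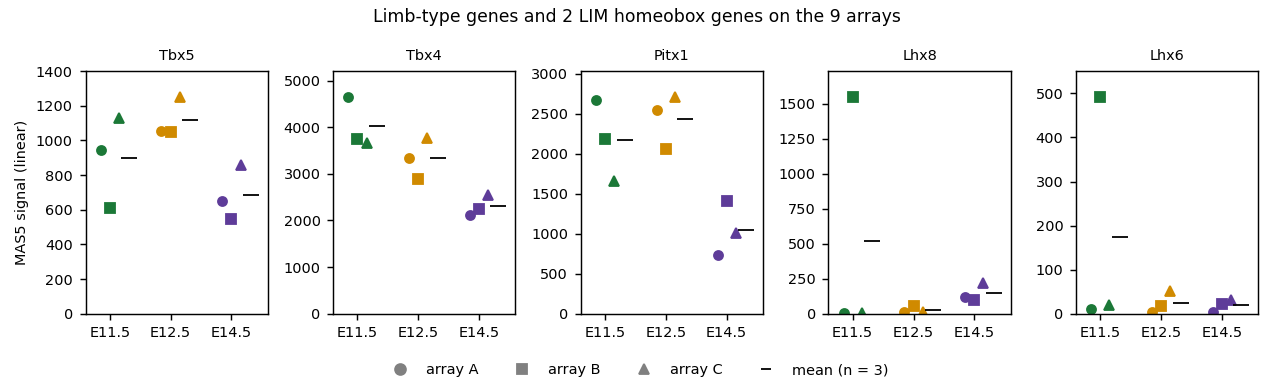
MAS5 signal (linear, from 0) of Tbx5, Tbx4, Pitx1, Lhx8 and Lhx6 on the 9 arrays by stage, with a symbol for each array letter and a dash for the mean of 3 arrays. Tbx4 lies at 2125 or more on every array, and Lhx8 at 1550 only on E11.5 B.

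The widest interval sampled, E14.5 against E11.5, is given first. All 8 passed the filter on low signals, a signal above 90.6 on at least 3 arrays. Meis1, Meis2, Pbx2, Pbx3, Lhx2, Lhx9 and Lmx1b fell, and Meis3 rose, in limma's test with Benjamini-Hochberg adjustment over 11575 genes (adjusted p under 0.05). Of all genes tested 17.7% fell and 22.9% rose. Meis3 passed the filter only through the E14.5 arrays, where it is highest, so it had to differ and its rise is a description. The median log2 change of the 8 genes was -1.15, against 0.00 over all genes. All 3 arrays of E14.5 lay below all 3 of E11.5 for 7 genes (24.1% of genes tested) and above for 1 (27.3%). Without E11.5 B the calls of Meis3 (adjusted p = 0.0750) and Pbx3 (0.119) were lost and 6 genes fell. Both were also lost without E14.5 C, and without E14.5 A Meis3 was lost and 7 genes fell. In sorted bulk cells, fewer cells that express a gene and less RNA per cell cannot be told apart.

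Meis1 encodes a TALE cofactor of HOX proteins in the proximal limb. Its main probe set, 1450992_a_at, had signals of 1616, 1463 and 1207 on E11.5 A, B and C, 901, 918 and 400 on the E12.5 arrays, then 262, 489 and 417 on the E14.5 arrays. E14.5 lay below E11.5 on every array, while E12.5 C was below 2 of the E14.5 arrays. Mean signal was 389 ± 116 (SD, n = 3) at E14.5 and 1429 ± 207 at E11.5, a log2 change of -1.91 ± 0.34 (SE, limma adjusted p = 0.00191). It was 740 ± 294 at E12.5, a log2 change of -1.04 ± 0.34 from E11.5 (adjusted p = 0.158), with all E12.5 arrays below all E11.5 arrays.

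Meis2 encodes the closest relative of MEIS1, with a like proximal domain in the limb bud. Probe set 1457632_s_at had signals of 2416, 2761 and 2323 on E11.5 A, B and C, 1352, 1687 and 711 at E12.5, then 402, 883 and 485 at E14.5. As for Meis1, E12.5 C was the lowest of its stage, and E14.5 B exceeded it. Mean signal was 590 ± 257 at E14.5 and 2500 ± 230 at E11.5 (log2 -2.16 ± 0.35, adjusted p = 0.00117), a 4.48-fold difference on the log2 mean. Between E11.5 and E12.5 the log2 change was -1.09 ± 0.35 (adjusted p = 0.152). The suffixes _s_at and _x_at mark probe sets whose probes can also match other transcripts.

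**Figure D2:**
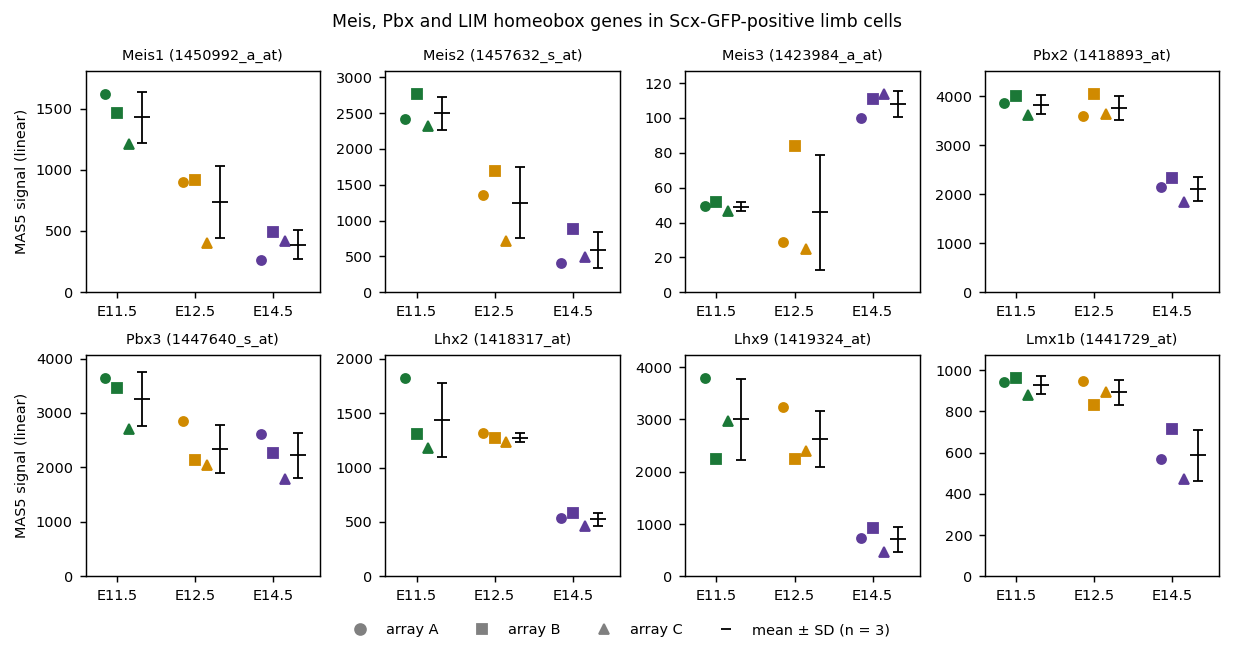
MAS5 signal (linear, from 0) of the main probe set of each gene on 9 arrays by stage, with a symbol for each array letter and bars for the mean ± SD of 3 arrays. Meis1 and Meis2 lie lower at E12.5 than at E11.5 on every array, while Pbx2, Lhx2, Lhx9 and Lmx1b overlap between these stages and lie lower at E14.5.

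Meis1 and Meis2 have 7 probe sets between them, which were also tested one by one over 20885 probe sets. Meis2 probe sets 1417129_a_at and 1447861_x_at fell by a log2 of 2.20 ± 0.30 and 2.26 ± 0.37 between E11.5 and E14.5 (limma adjusted p = 0.000901 and 0.00218), much as 1457632_s_at did in the same fit (-2.16 ± 0.36, adjusted p = 0.00238). The fourth, 1440091_at, had signals of 149, 1287 and 951 at E11.5, 70.3, 433 and 202 at E12.5, and 30.6, 114 and 327 at E14.5, in the order A, B, C. Array A was the lowest of each stage, and A minus the mean of B and C averaged -2.54 on the log2 scale. Its log2 change between E11.5 and E14.5, -2.44 ± 1.07, was not called (adjusted p = 0.116). Without the letter A arrays it was -2.52 ± 0.57 (adjusted p = 0.0314).

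Meis1 probe set 1443260_at had signals of 228, 943 and 809 at E11.5, 106, 353 and 208 at E12.5, and 82.5, 152 and 339 at E14.5. Array A was again the lowest of each stage (mean difference -1.58). Of the 20885 probe sets tested, A was lowest in every stage for 13.2%. Only 0.129% had as low an A as 1440091_at and 1.20% as low an A as 1443260_at, both chosen after their values were seen, and the other Meis probe sets tested did not have A lowest in every stage. The change of 1443260_at between E11.5 and E14.5 was a log2 of -1.79 ± 0.69 (adjusted p = 0.0792), and -1.95 ± 0.43 without the letter A arrays (adjusted p = 0.0292). The remaining Meis1 probe set, 1459423_at, had signals of 6.46 to 114 and did not pass the filter.

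**Figure D3:**
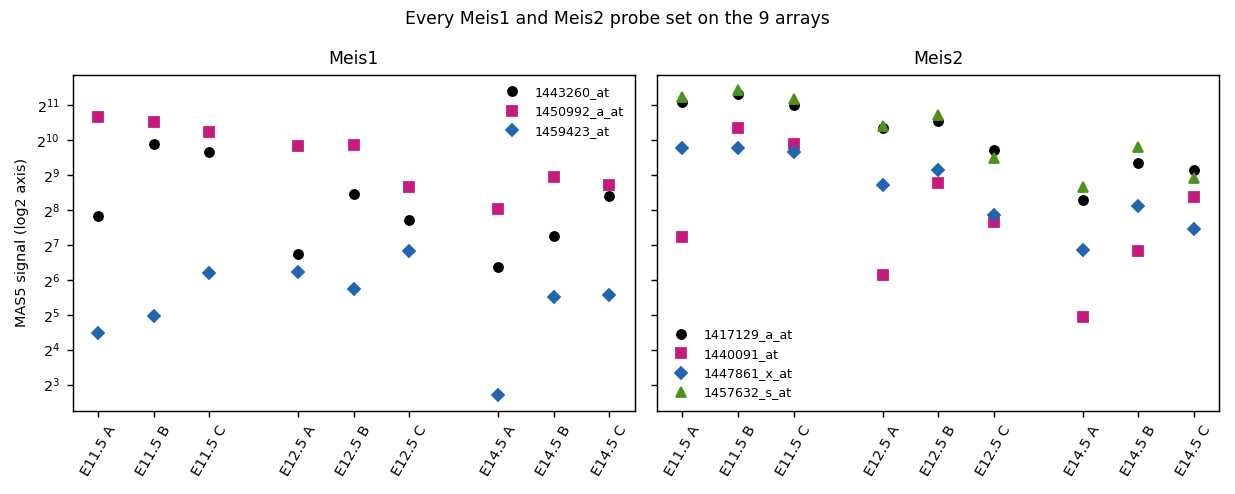
MAS5 signal (log2 axis) of the 3 Meis1 and 4 Meis2 probe sets on each of 9 arrays, with 1 colour and symbol per probe set. Meis1 1443260_at and Meis2 1440091_at lie lowest on array A of each stage, and the brighter probe sets of both genes have lower means at each later stage.

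Meis3 encodes another MEIS protein, known mainly from the hindbrain. Its probe set 1423984_a_at was dim, with signals of 49.4, 51.8 and 46.4 at E11.5, 28.7, 84.0 and 25.04 at E12.5, and 99.8, 111 and 114 at E14.5. Only the E14.5 arrays exceeded the filter of 90.6, so the gene passed the filter only through the stage in which it is highest and had to differ. The log2 change was 1.14 ± 0.38 between E11.5 and E14.5 (adjusted p = 0.0374) and 1.46 ± 0.38 between E12.5 and E14.5 (adjusted p = 0.0226). The first call was lost without any 1 array of E11.5 or E14.5 (highest adjusted p 0.0885), and the second after leaving out array A or C of E12.5 or array B or C of E14.5 (highest 0.0813). With the floor at the median of all signals the change was 0.25 in both comparisons and was not called.

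Pbx2 encodes a broadly expressed PBX protein. Probe set 1418893_at had signals of 3853, 4016 and 3624 at E11.5, 3607, 4039 and 3638 at E12.5, and 2155, 2327 and 1842 at E14.5. E11.5 and E12.5 overlapped, and every E14.5 array lay below both. The log2 change was -0.84 ± 0.13 between E12.5 and E14.5 (adjusted p = 0.00238) and -0.87 ± 0.13 between E11.5 and E14.5 (adjusted p = 0.000837). The other probe sets, 1418894_s_at (-0.94 ± 0.16, adjusted p = 0.00239) and 1449261_at (-0.66 ± 0.17, adjusted p = 0.0166), also fell between E11.5 and E14.5.

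Pbx3 encodes a further PBX protein of the limb mesenchyme. Probe set 1447640_s_at had signals of 3634, 3455 and 2701 at E11.5, 2849, 2139 and 2039 at E12.5, and 2612, 2270 and 1782 at E14.5. All E14.5 arrays lay below all E11.5 arrays, with overlap between E12.5 and each other stage. The gene fell by a log2 of 0.56 ± 0.20 between E11.5 and E14.5 (adjusted p = 0.0469). That call did not hold after leaving out array A or B of E11.5, or array B or C of E12.5 or of E14.5 (adjusted p up to 0.152), and in the fit of probe sets neither this one (adjusted p = 0.0665) nor 1421193_a_at (log2 -0.44 ± 0.17, adjusted p = 0.0783) was called.

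Lhx2 encodes a LIM homeodomain protein of the distal limb mesenchyme. Its only probe set, 1418317_at, had signals of 1820, 1306 and 1183 at E11.5, 1320, 1270 and 1234 at E12.5, and 534, 582 and 463 at E14.5. Both earlier stages overlapped, and the E14.5 arrays lay below them by a wide gap. The log2 change was -1.28 ± 0.17 between E12.5 and E14.5 (adjusted p = 0.00112) and -1.43 ± 0.17 between E11.5 and E14.5 (adjusted p = 0.000236), and -0.15 ± 0.17 between E11.5 and E12.5 (adjusted p = 0.749).

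Lhx9 encodes the paralog that acts redundantly with LHX2 in the limb. Probe set 1419324_at had signals of 3786, 2246 and 2974 at E11.5, 3243, 2252 and 2396 at E12.5, and 731, 930 and 457 at E14.5. The highest E14.5 array was below the lowest array of either earlier stage. The log2 change was -1.94 ± 0.28 between E12.5 and E14.5 (adjusted p = 0.00161) and -2.12 ± 0.28 between E11.5 and E14.5 (adjusted p = 0.000416). All 4 Lhx9 probe sets fell in both comparisons, by a log2 of 1.46 to 2.61 between E11.5 and E14.5. The one with the smallest change, 1431598_a_at, was the dimmest, with a mean of 112 ± 22.7 at E14.5 and 311 ± 73.8 at E11.5.

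Lmx1b encodes the dorsal LIM homeodomain regulator. Probe set 1441729_at had signals of 945, 960 and 879 at E11.5, 948, 832 and 896 at E12.5, and 568, 717 and 473 at E14.5. The earlier stages overlapped and every E14.5 array was lower. The log2 change was -0.62 ± 0.16 between E12.5 and E14.5 (adjusted p = 0.0224) and -0.68 ± 0.16 between E11.5 and E14.5 (adjusted p = 0.00816). The first call did not hold after leaving out array A or C of either stage (adjusted p up to 0.0766). The second probe set, 1421769_at, was not tested.

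E12.5 was compared with E11.5, and E14.5 with E12.5, to place the differences in time. Between E11.5 and E12.5 limma called none of the 8 genes (3.55% of genes tested were called), although 3, Meis1, Meis2 and Pbx3, had an unadjusted p under 0.05. The median log2 change of the 8 genes was -0.25, against 0.04 over all genes. Pbx3 had a log2 change of -0.48 ± 0.20 (limma adjusted p = 0.268) in this interval and of -0.08 ± 0.20 (adjusted p = 0.811) between E12.5 and E14.5. Meis1 and Meis2 were the 2 genes with all E12.5 arrays below all E11.5 arrays (7.75% of genes). Between E12.5 and E14.5, Pbx2, Lhx2, Lhx9 and Lmx1b fell (9.32% of genes) and Meis3 rose (12.6%), again through a filter passed only at E14.5, and the median was -0.86, against -0.05.

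In that second interval Meis1 had a log2 change of -0.88 ± 0.34 (adjusted p = 0.0932) and Meis2 of -1.08 ± 0.35 (adjusted p = 0.0532), with overlapping arrays. With the array letters as a replicate block, Meis2 was called (adjusted p = 0.0194). Without E12.5 C, Meis1 (-1.27, adjusted p = 0.0150) and Meis2 (-1.44, adjusted p = 0.0172) were called, and Meis2 also without E14.5 B (-1.41, adjusted p = 0.0208).

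The timing of the Meis and LIM homeobox changes was compared directly, an added comparison. Between E11.5 and E12.5 the change of Meis1 minus that of Lhx2 was a log2 of -0.89 ± 0.39, and the 4 differences of Meis1 or Meis2 against Lhx2 or Lhx9 ran between -0.94 and -0.86. In exact two-sided permutation tests over the samples of each stage their p-values were 0.1 to 0.2, or 0.267 after Benjamini-Hochberg adjustment over 8 comparisons, and 0.1 is the smallest that 3 against 3 arrays can give. Between E12.5 and E14.5 the differences ran from 0.20 to 1.06 (p 0.2 to 0.6). With so few arrays the test could not pass 0.05 in either interval. Within array letters A, B and C the difference of Meis1 minus Lhx9 between E11.5 and E12.5 was -0.62, -0.68 and -1.28, and each of the 4 differences was negative in all 3 letters. Between E12.5 and E14.5 both differences against Lhx9 were positive in 3 letters, and both against Lhx2 in 2. Both intervals share the E12.5 arrays, so a low Meis signal there lowers the first difference and raises the second. Letter C had the largest differences in both intervals. Meis1 and Meis2 were also correlated over the 9 arrays (r = 0.977), so the 4 differences are not separate evidence. In a test of E12.5 against the midpoint of the other stages, also added, limma called none of the 8 genes (0.769% of genes) and 4 had an unadjusted p under 0.05, with Lhx9 0.88 ± 0.25 above the midpoint (adjusted p = 0.179) and Meis1 0.08 below it (-0.08 ± 0.29, adjusted p = 0.947).

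**Figure D4:**
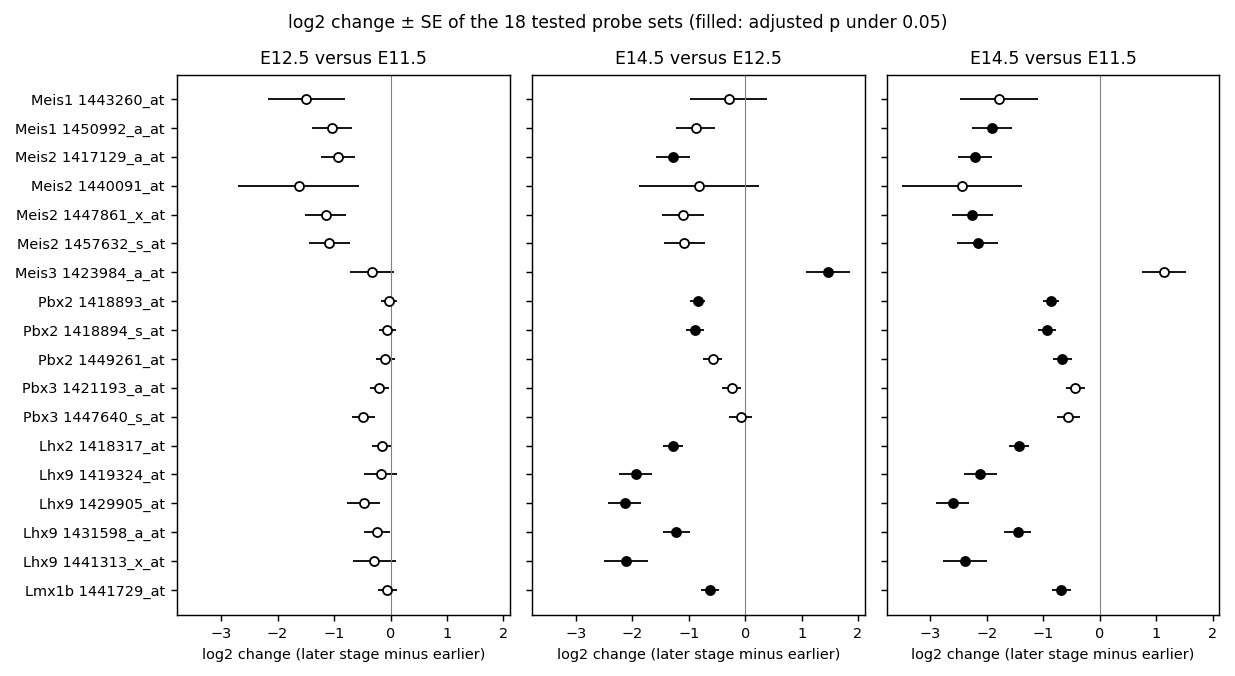
Log2 change ± SE (later minus earlier stage) of the 18 probe sets tested in 3 comparisons, filled where the adjusted p over all probe sets is under 0.05. The 4 Lhx9 probe sets are filled in both comparisons that involve E14.5, and none is filled between E11.5 and E12.5.

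Over all 20 probe sets, 18 passed the filter. Between E11.5 and E14.5, 13 fell and none rose (13.9% and 17.3% of probe sets tested), and between E12.5 and E14.5, 9 fell and 1 rose (5.51% and 8.6%). Between E11.5 and E12.5 none was called by limma (1.35%), and 5 had an unadjusted p under 0.05. limma's F-test for any difference among the stages called 7 of the 8 genes (33.7% of genes), all but Pbx3 (adjusted p = 0.0926). The probe set that rose, and 1 of these 7 genes, is Meis3, which passed the filter only through the E14.5 arrays and had to differ.

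For each gene the 3 genes with the most similar signals over the 9 arrays were listed by Pearson r of log2 signal, which describes points that share stages and arrays. Meis1 had Ppa1 (r = 0.978) and Meis2 (0.977) first, while Meis1 was not among the 3 genes most like Meis2. Meis2 had Cip2a (0.996), Lhx2 had Nup93 (0.990), Lhx9 had Bex2 (0.997), Lmx1b had Kpna2 (0.991), Pbx2 had Prdm16 (0.985) and Pbx3 had Wdr77 (0.981). Meis3 reached 0.948 with Golph3.

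Related genes were followed by lists. Their counts and medians are for E14.5 against E11.5, where 17.7% of all genes fell, 22.9% rose and the median was 0.00. Among TALE partners and relatives 4 of 8 tested fell and 1 rose (median log2 change -0.44). With 1 array left out 3 to 4 fell, the call of Tgif2 holding only without E12.5 A or E14.5 A. Irx3, which encodes an Iroquois TALE protein of the proximal and anterior limb bud, had a mean signal of 1266 ± 74.2 at E14.5 and 2906 ± 253 at E11.5 (log2 -1.20 ± 0.18, adjusted p = 0.00083), and its fall was already called between E11.5 and E12.5 (-1.37 ± 0.18, adjusted p = 0.0054). Tgif1 (-1.09 ± 0.17), a TALE repressor that limits TGF-beta and retinoic acid signalling, Pknox2 (-0.90 ± 0.16), a relative of the MEIS proteins, and Pbxip1 (0.59 ± 0.19), which encodes a PBX-binding protein and rose, followed. Irx3, Tgif1 and Pknox2 were called with any 1 array left out, whereas the rise of Pbxip1 was lost without E11.5 A or B or E14.5 A or C.

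Of 9 LIM domain cofactors tested 3 fell and 1 rose (median -0.33). Lmo2, a LIM-only adaptor gene, was at 223 ± 17.3 at E14.5 and 556 ± 45.3 at E11.5 (log2 -1.31 ± 0.17, adjusted p = 0.00036), and Lmo1 (-0.92 ± 0.28) and Ssbp3 (-0.82 ± 0.11), whose protein stabilises LDB complexes, fell too, the call of Lmo1 being lost without E11.5 A or E14.5 B or C. Ldb2, an LDB adaptor gene, rose to 2363 ± 386 at E14.5, against 1360 ± 81.4 at E11.5 (0.79 ± 0.15, adjusted p = 0.0026). Of the other 9 LIM homeobox genes 3 passed the filter (median 0.06), 1 fell and none rose. Lhx8, with 1550 on E11.5 B, was not called (log2 0.58 ± 1.37, limma adjusted p = 0.768), but was called as rising without that array. Its signal then exceeded the filter only on the E14.5 arrays (122, 98.5 and 219), so that rise is a description. Isl1, which acts in the onset of the hindlimb bud, fell (-1.41 ± 0.34, adjusted p = 0.0088), with signals of 122, 264 and 356 at E14.5 and 759, 539 and 528 at E11.5.

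Retinoid genes moved in both directions, with 2 of 10 tested falling and 4 rising (median 0.15), or 3 to 4 rising with 1 array left out. Cyp26b1, which encodes the enzyme that clears retinoic acid from the distal limb, fell to 915 ± 66.9 at E14.5, against 2593 ± 177 at E11.5 (log2 -1.50 ± 0.14, adjusted p = 3.8e-05). Rdh10, the gene of a retinol dehydrogenase in retinoic acid synthesis, rose to 2087 ± 238 at E14.5, against 732 ± 125 at E11.5 (1.52 ± 0.19, adjusted p = 0.00025). Aldh1a3, a retinaldehyde dehydrogenase gene and 1 of the 4 that rose, had signals of 223, 353 and 317 at E14.5 and 27.6, 3.33 and 5.99 at E11.5. It passed the filter only through the E12.5 and E14.5 arrays, so it had to be higher there. The size of its rise (3.59 ± 0.23) depends on the floor of 22.7. Crabp1, a retinoic acid binding protein gene, rose as well (1.11 ± 0.15). Aldh1a2, of the same family as Aldh1a3, was named after its values were seen. Its mean signal was 673 ± 94.8 at E11.5, 1718 ± 176 at E12.5 and 505 ± 144 at E14.5. limma called its rise between E11.5 and E12.5 (log2 1.36 ± 0.22, adjusted p = 0.0128), though not without E12.5 C. Its fall between E12.5 and E14.5 was also called (-1.80 ± 0.22, adjusted p = 0.00063).

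Of 10 proximodistal segment genes 6 fell and none rose (median -0.64), and 5 to 8 fell with 1 array left out, 8 of them without E11.5 B. Shox2, needed for the proximal limb skeleton, fell to 4581 ± 1463 at E14.5, against 11737 ± 480 at E11.5 (log2 -1.41 ± 0.23, adjusted p = 0.0011). Hoxd9 (-0.97 ± 0.18), Hoxd11 (-0.93 ± 0.17) and Hoxa9 (-0.89 ± 0.21), HOX genes of the upper and middle limb segments, fell by amounts near that of Pbx2. limma called none of 4 tested dorsoventral genes (median 0.08), and 0 had an unadjusted p under 0.05. Among 8 signalling genes 2 fell and 2 rose (median -0.04). Shh, the posterior signal that depends on Lhx2, Lhx9 and Lmx1b in the mouse limb, had signals of 27.3, 19.9 and 31.9 at E14.5 and 930, 1240 and 885 at E11.5, and was already at 14.4 to 68.5 at E12.5. It passed the filter only through the E11.5 arrays, so it had to be lower later, and the size of its change depends on the floor. Spry4, an inhibitor of FGF signalling, rose to 765 ± 142 at E14.5, against 367 ± 130 at E11.5, while Grem1, a BMP antagonist gene, fell (log2 -0.80 ± 0.23) and Gli1, a target of hedgehog signalling, rose (0.59 ± 0.20). Both of these calls were lost without E14.5 A, E11.5 A or E11.5 C, and that of Gli1 also without E12.5 B or E14.5 B.

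**Figure D5:**
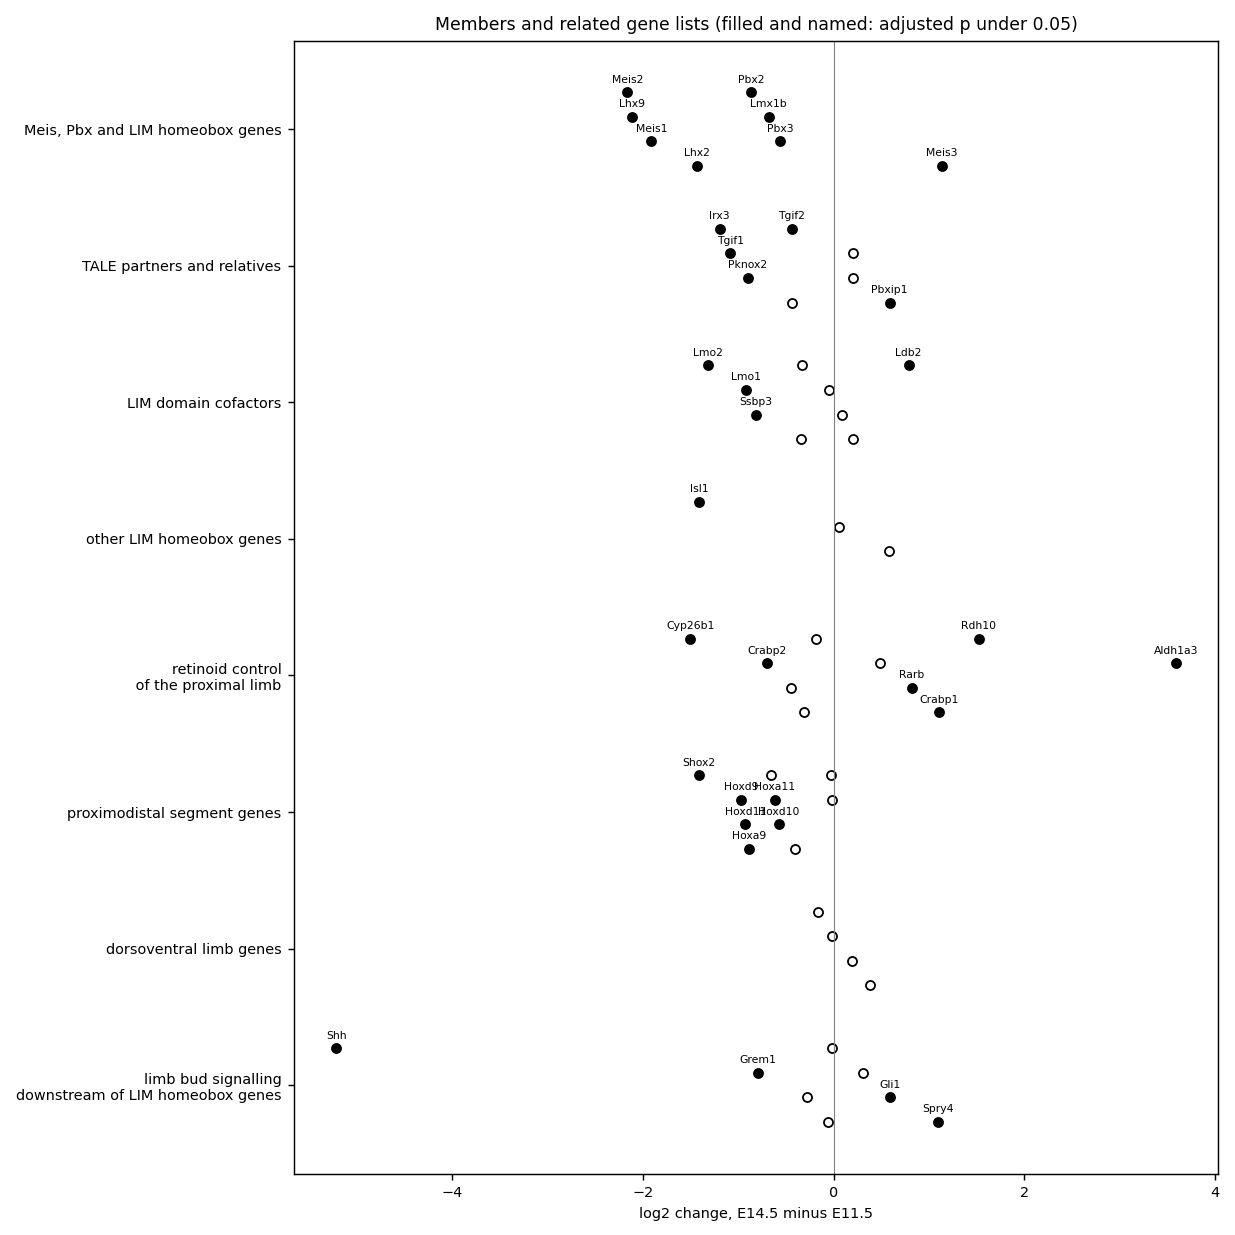
Log2 change between E11.5 and E14.5 (E14.5 minus E11.5) of each tested gene in the 8 genes described here and in 7 related lists, filled and named where the adjusted p is under 0.05. Meis2, Lhx9 and Meis1 lie further left than any called TALE partner or LIM domain cofactor, and Shh and Aldh1a3, whose changes depend on the floor, lie outermost.

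Markers of other cell types moved in the same interval, in which 17.7% of all genes fell and 22.9% rose. Of 10 cartilage markers 6 rose between E11.5 and E14.5, and their summed signal was 8484 to 74336 at E14.5 and 15645 to 18580 at E11.5. The top of that range is E14.5 A, where Acan had a signal of 5409, against 554 and 185 on E14.5 B and C, and Matn1 6529, against 613 and 114 (both named after their values were seen). With 1 array left out 3 to 7 cartilage markers rose, the fewest without E11.5 B, and without E14.5 A 5 rose and 2 fell. Of 10 skeletal muscle markers 4 rose (5 without E11.5 A) and 1 fell (2 without E14.5 A). Their summed signals were 9328 to 12463 at E14.5 and 4239 to 7002 at E11.5, of which Actc1 alone had 4490 to 6862 and 1595 to 2776. Of 8 endothelial markers 5 were tested and 4 rose (3 to 4 with 1 array left out), with summed signals of 1243 to 1597 at E14.5 and 391 to 718 at E11.5, and Pecam1 stayed below the filter on every array. Of 9 limb ectoderm markers 5 were tested, 3 rose and 1 fell, with summed signals of 1379 to 1672 at E14.5 and 1007 to 1196 at E11.5, and Krt14 stayed below the filter. Cdh1, 1 of the 3 that rose, passed the filter only through the E14.5 arrays (170, 127 and 95.9), so it had to be higher there. The gene that fell, Krt8, was not called without E11.5 B or C or E14.5 B or C. Blood markers had 630 to 1173 at E14.5 and 794 to 3519 at E11.5, with 1 of 5 tested rising (0 without E14.5 A) and 1 falling (2 without E14.5 B), and markers of neurons and glia had 771 to 996 at E14.5 and 786 to 1003 at E11.5, with 1 of 3 rising and 1 falling. Cdh5, Emcn, Tek, Hapln1, Cytl1, Pax7 and Csf1r, which rose, were below the filter on every E11.5 array, as was the tendon marker Tnmd. Hbb-bh1, Krt8 and Tubb3, which fell, were below it on every E14.5 array. Each passed only through other stages, where it is higher, so these changes are descriptions. The part of these cells in the changes of the homeobox genes was not tested.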

How the data were processed

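Affymetrix Mouse Genome 430 2.0 arrays measured amplified total RNA of sorted Scx-GFP-positive limb cells. The deposited values are intensities, 1 linear signal per probe set and array. Per the submitters' processing notes, the authors obtained them by MAS5 with version 1.1 of Affymetrix Expression Console. On each array the mean signal without the lowest and highest 2% was 500, as tested on the file, and no further normalization was applied. Such scaling fixes only relative levels, and MAS5 signals of dim probe sets are noisy. Precision is limited by the number of arrays.

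The table holds 45101 probe sets, of which 64 were controls, 34945 had 1 gene symbol in the platform annotation, 932 had several and 9160 were not in the gene list. Symbols were updated by gene identifier. Signals under 22.7 (25th percentile) were set to that floor before log2. A gene was represented by its brightest probe set (mean log2 signal over the 9 arrays), with suffix _x_at only where there was no other, and tested if above 90.6 (median) in at least 3 arrays. This left 11575 genes and 20885 probe sets. limma 3.58.1 in R 4.3.3 fitted a mean for each stage to all 9 arrays, leaving 6 residual degrees of freedom, with Benjamini-Hochberg adjustment over everything tested and calls at adjusted p under 0.05. The scripts were tested on simulated data.

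The homeobox genes and related lists were chosen with earlier results of these data known. All members are named, and up to 4 called genes per list with the largest change between E11.5 and E14.5. Of the 3 genes most like each member the first is named, and for Meis1 also the second. Array letters were checked as pairs by correlating deviations from stage means across genes: r was 0.520, 0.133 and 0.332 for A, B and C between E12.5 and E11.5, 0.310, 0.121 and 0.289 between E14.5 and E12.5, and 0.313, -0.00516 and 0.238 between E14.5 and E11.5. The main tests left the arrays unpaired in every comparison. Differences between genes were also given within letters, for the comparisons with E12.5 only. As an alternative, limma was run in every comparison with each letter treated as a replicate block. Other alternatives changed the floor, filter, normalization, probe set rule, prior and arrays.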

Additional observations from a re-analysis of the deposited data

How the results depend on the processing

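Each member and comparison was recomputed under 19 alternatives. Where Meis3 is called it is in the counts below, although it passed the main filter only through the E14.5 arrays. Meis1, Meis2, Pbx2, Lhx2 and Lhx9 were called between E11.5 and E14.5 under all 19, Lmx1b under 16, Pbx3 under 9 and Meis3 under 7. Lhx2 and Lhx9 were called between E12.5 and E14.5 under all 19, and Pbx2 under 18. The count of genes called between E11.5 and E14.5, which was 8, was 5 with median centring and also 5 without the arrays of letter A, with Lmx1b, Meis3 and Pbx3 lost in both. Between E12.5 and E14.5 it was 5, and 3 with median centring (Lmx1b and Pbx2 lost), 3 without the letter A arrays (Lmx1b and Meis3 lost), and 3 to 5 with 1 array left out. For probe sets this count was 10, and 6 with median centring, 3 without the letter A arrays and 7 to 12 with 1 array left out. Between E11.5 and E12.5 it was 0 genes, and 0 to 1 with 1 array left out (Meis3 without E12.5 B). The count by the F-test was 7, and 3 without the letter A arrays, where Meis1, Meis2, Meis3 and Lmx1b were lost, and 5 to 7 with 1 array left out. The alternatives for the F-test, the list counts without single arrays, the midpoint test and the differences between genes were chosen after seeing the data. Leaving out the letter A arrays leaves 6 arrays, and no other cause was tested.

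With the letters as a replicate block 8, 6 and 0 genes were called between E11.5 and E14.5, E12.5 and E14.5, and E11.5 and E12.5, and 8 by the F-test. The block changed no call of a gene other than Pbx3 in the F-test and Meis2 in the comparison of E14.5 with E12.5. Between E11.5 and E14.5, probe sets called were 17 with the block and 13 without. Between E12.5 and E14.5 they were 13 with the block and 10 without.

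Small changes took the other sign in some settings. Pbx2 between E11.5 and E12.5 was 0.0020 with quantile normalization, 0.0069 without the letter A arrays and -0.0794 to 0.0076 with 1 array left out. Lhx2 in that interval was 0.0101 without the letter A arrays and -0.275 to 0.0355 with 1 array left out, and Lhx9 -0.370 to 0.0066. For Pbx3, E14.5 against E12.5 gave -0.204 to 0.0719.

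Median centring moved the median of all genes by -0.20 between E11.5 and E14.5 and by -0.11 from E12.5 to E14.5. In the E12.5 to E14.5 interval 281 genes fell and 631 rose after centring (30.8% fell), against 1079 and 1463 without it (42.4%). The cause was not tested.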
